A study of Homo sapiens with 8 samples.

Results

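Aminoacyl-tRNA synthetases are the enzymes that join each amino acid to its tRNA before translation, and 36 of their genes were followed here, 20 for the cytosol and 16 for mitochondria. They were taken by name from a list of the family and not by a cutoff on measured values, but the choice was made with earlier results of these data known. All 36 were among the 60624 gene rows of the count tables and all 36 were among the 18661 genes with enough counts to be tested. The question put to them was whether the cytosolic and the mitochondrial enzymes behaved alike in the 4 groups of the experiment.

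The cells were A549, an established human lung adenocarcinoma line, with no genetic change in any group. They were left untreated or exposed to indisulam, a sulfonamide that leads to degradation of the splicing factor RBM39, to SPHINX31, an inhibitor of the splicing factor kinase SRPK1, or to the combination of both. The methods of the study give 0.5 µM indisulam, 5 µM SPHINX31 and 24 h for this experiment, whereas the protocol text attached to every library gives 2 µM indisulam and 18 h, so that dose and time remain uncertain. Polyadenylated RNA was sequenced from 2 technical replicates per group, which makes 8 libraries in all, and p-values therefore measure the spread between these libraries only and not that between independent treatments.

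The libraries held between 51727369 and 63186989 counts on genes, which amounts to 83% to 86% of the reads recorded. All 6 epithelial markers looked at (KRT8, KRT18, KRT7, CDH1, EPCAM and KRT19) were well covered, with at least 1377 counts in every library, whereas 8 of 12 markers of leukocytes, endothelium, fibroblasts and hepatocytes had at most 11 counts in any library and were not tested. The 4 tested ones were CD14, PECAM1, COL1A1 and ALB, none of which was called in a comparison with untreated cells, and PECAM1 was lower in the combination against SPHINX31 (log2 fold change -0.51, edgeR adjusted p = 0.0229). Of the epithelial markers KRT7 and CDH1 were lower (-0.39 and -0.30) and EPCAM higher (0.18) with indisulam, and KRT8, KRT18 and CDH1 were lower with SPHINX31 (-0.22, -0.22 and -0.23). Reads outside annotated features made up 3.94% and 4.34% of the untreated libraries, 5.48% and 4.49% of the indisulam libraries, 3.67% and 3.93% of the SPHINX31 libraries and 5.87% and 4.87% of the combination libraries. The part of these reads in the results was not tested, and counts per gene do not resolve exons.

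In human cells every synthetase is encoded in the nucleus, and for most amino acids 1 gene serves the cytosol and another makes an enzyme that is imported into mitochondria. GARS1 and KARS1 make both forms from a single gene. Several cytosolic enzymes sit together in the multisynthetase complex, which is held by the scaffold proteins AIMP1, AIMP2 and EEF1E1. Uncharged tRNA is sensed by the kinase GCN2 (EIF2AK4), whose signal raises translation of the transcription factor ATF4, and ATF4 is known to drive many cytosolic synthetase genes together with amino acid synthesis and transport genes.

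Because ATF4 is the factor best known for controlling these genes, the promoters were searched for the letters of its composite element, TGATGNAA, on both strands. Promoter windows (250 bases before to 50 bases after the start of transcription, RefSeq, GRCh38.p14) were at hand for 30 of the 36 genes, 16 cytosolic and 14 mitochondrial. LARS1, TARS3, VARS1, YARS1, AARS2 and VARS2 had no entry. The letters were found for 7 of 16 cytosolic genes and for 1 of 14 mitochondrial genes, against 4.46% of the 27305 genes in the table. The stretches around them follow, each read 5′ to 3′ on the strand of its gene, with the matched letters in capitals. A match is a description of the sequence and does not show that ATF4 binds there.
AARS1, chr16:70289646-70289733, minus strand: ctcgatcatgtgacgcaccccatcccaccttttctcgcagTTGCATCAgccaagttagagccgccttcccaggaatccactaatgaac
CARS1, chr11:3057414-3057465, minus strand: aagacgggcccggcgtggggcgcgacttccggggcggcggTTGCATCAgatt
GARS1, chr7:30594805-30594887, plus strand: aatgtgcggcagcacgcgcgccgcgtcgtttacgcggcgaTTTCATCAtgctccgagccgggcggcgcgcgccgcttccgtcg
IARS1, chr9:92293688-92293750, minus strand: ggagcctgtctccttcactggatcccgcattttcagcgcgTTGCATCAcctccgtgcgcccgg
MARS1, chr12:57488024-57488077, plus strand: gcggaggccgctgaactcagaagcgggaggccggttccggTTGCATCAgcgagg
NARS1, chr18:57621815-57621862, minus strand: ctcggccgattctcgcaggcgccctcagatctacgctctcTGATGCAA
TARS1, chr5:33440927-33440974, plus strand: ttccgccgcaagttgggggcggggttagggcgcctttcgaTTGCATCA
YARS2, chr12:32756047-32756134, minus strand: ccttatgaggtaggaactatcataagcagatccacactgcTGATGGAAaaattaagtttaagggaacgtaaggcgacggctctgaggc

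The identical 8 letters TTGCATCA stood in 5 of the cytosolic promoters, and NARS1 held their reverse complement. In MARS1 and CARS1 the match lay right at the start of transcription (first base at -4 and -2), in IARS1 and GARS1 slightly before it (-13 and -33), in TARS1 and NARS1 just after it (3 and 15), and in AARS1 further upstream (-187), all counted on the gene's strand from the annotated start. The other promoter letters searched had matches in both compartments. The ETS site CCGGAAG was found for 9 of 16 cytosolic and 7 of 14 mitochondrial genes (12.2% of all genes), the NRF1 core GCGCNTGCG for 4 of 16 and 4 of 14 (9.01% of all genes), the YY1 site AAGATGGCG for 3 of 16 and 2 of 14 (2.14% of all genes), and CCAAT for 7 of 16 and 9 of 14 (39.7% of all genes). All were searched on both strands, and none of these letter strings contains another. That a string is missing says only that these letters are not in the window.

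In untreated cells the cytosolic enzymes were the more highly expressed ones. Levels are given as RPKM, the counts scaled by the TMM-adjusted library size (CPM) and divided by the length in kb of all annotated exons of a gene (GENCODE 44, GRCh38). Summed over the 20 cytosolic genes they were 831 and 857 RPKM in the untreated libraries (844 ± 18.9, SD, n = 2), and summed over the 16 mitochondrial genes 143 and 141 RPKM (142 ± 1.37). The ratio of both sums was 5.95 ± 0.191. It depends on the length used, since dividing by the longest annotated transcript instead gave 7.64 and 7.98 in the same libraries. The ratio also depends on GARS1 and KARS1, which serve both compartments but were counted in the cytosolic sum only. Their mean levels in untreated cells were 33.6 and 65.8 RPKM.

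The highest levels in untreated cells belonged to TARS1, which charges threonine tRNA (90.3 and 93.9 RPKM), NARS1 for asparagine (86.1 and 90.8) and EPRS1, the fused enzyme for glutamate and proline (86.0 and 89.9). The ranges of these genes overlapped their neighbours in the order, so that their order is not resolved. All ranks given here also depend on the gene length used. AARS1, for example, had 46490 and 47423 counts in untreated libraries over 10248 exon bases, and TARS1 23765 and 23843 over 4257. MARS1 for methionine (74.8 and 77.1), AARS1 for alanine (73.4 and 77.6) and KARS1 for lysine (65.3 and 66.3) followed, and the first 2 of these again overlapped. IARS2, the mitochondrial isoleucine enzyme, ranked 7 with 63 and 62.8 RPKM, far above every other mitochondrial member. The next of them was YARS2 for tyrosine, which ranked 17 with 15.3 and 14.5 RPKM.

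The lowest cytosolic level was that of TARS3, a second threonine enzyme (2.30 and 2.57 RPKM, rank 31), and the lowest of all was that of VARS2, the mitochondrial valine enzyme. VARS2 received only 9 to 33 counts per library and SARS2, the mitochondrial serine enzyme, 248 to 438. Of their annotated exon bases, 63% of VARS2 and 48.2% of SARS2 are shared with another gene on the same strand, where reads are ambiguous for a counter, so both levels are uncertain. Reads of the paralogs TARS1 and TARS3 may also be hard to separate.

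Most cytosolic synthetases fell with indisulam, whereas the mitochondrial ones were called in either direction at shares near those of all tested genes. Of 20 cytosolic genes, 13 fell, 2 rose and 5 did not pass the threshold of an adjusted p under 0.05 (edgeR quasi-likelihood test, Benjamini-Hochberg adjustment over all tested genes), and the median log2 fold change was -0.36. Of 16 mitochondrial genes, 4 fell, 4 rose and 8 did not pass, with a median of 0.07. As background, 23.5% of all tested genes were called lower and 20.1% higher in this comparison, and the median over all of them was -0.00. The calls of 20 of the 23 members, 15 lower and 5 higher, were kept in every alternative analysis, and the other 3 were FARSB, NARS1 and TARS3. FARSB was not called without untreated replicate 1 or indisulam replicate 1 (adjusted p = 0.103 and 0.0626, edgeR), and NARS1 and TARS3 were not called without replicate 2 of either group.

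**Figure D1:**
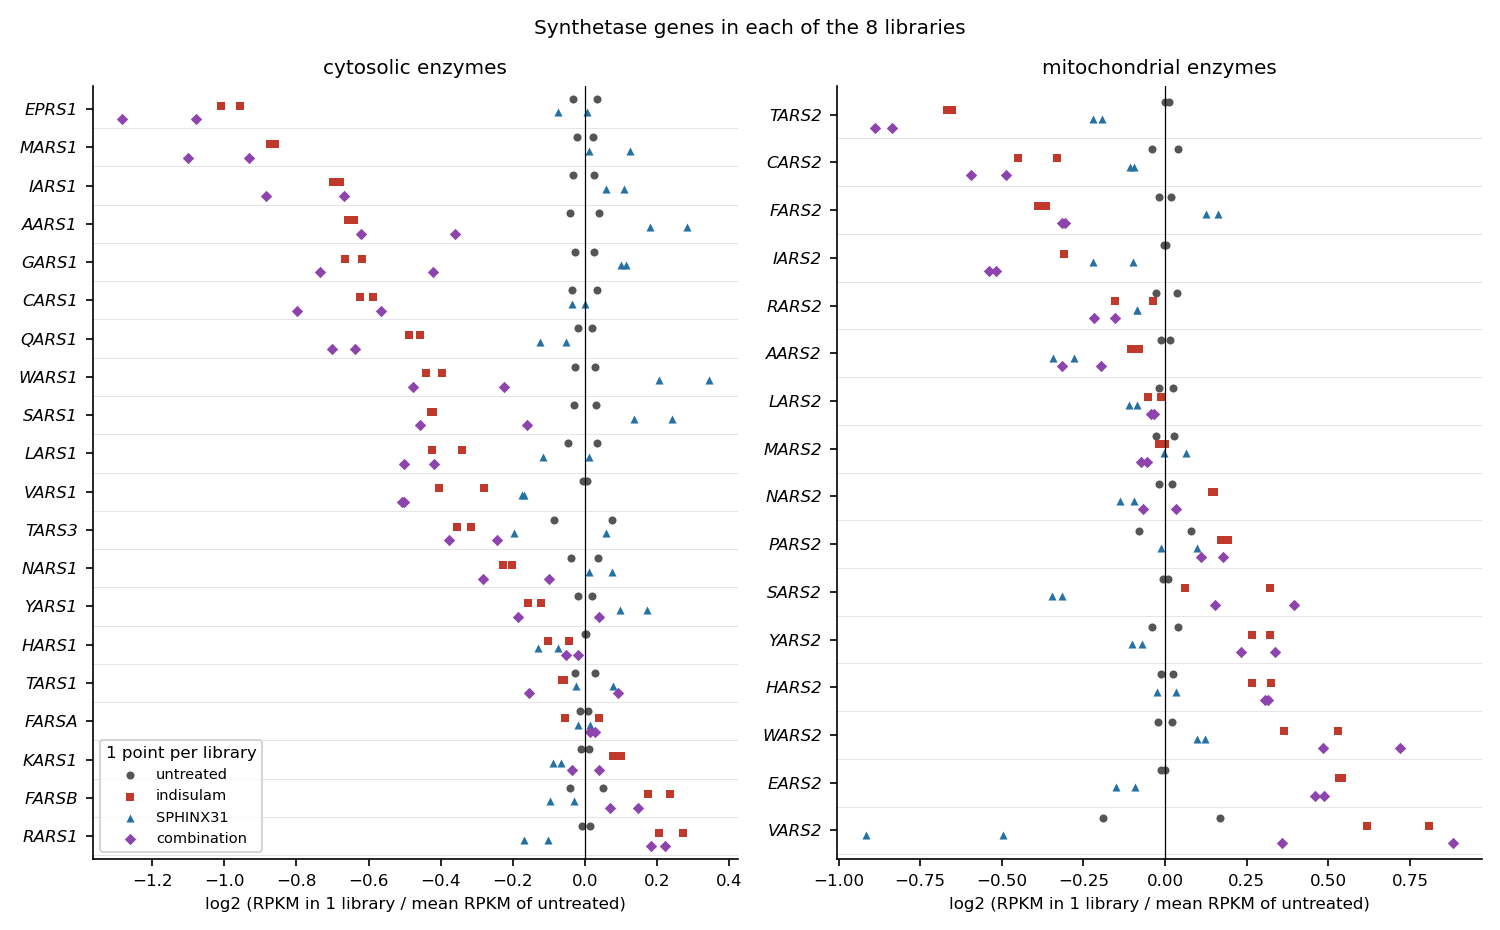
Level of each synthetase gene in each library, as the log2 ratio of its RPKM to the mean RPKM of the untreated libraries, with cytosolic genes on the left and mitochondrial genes on the right, ordered by the change with indisulam. Indisulam and combination libraries lie to the left of untreated for most cytosolic genes, from EPRS1 at -0.98 to NARS1 at -0.21 with indisulam, whereas mitochondrial genes spread from TARS2 at -0.66 to EARS2 at 0.54 and the weakly counted VARS2.

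The largest change among the cytosolic members was that of EPRS1 (ENSG00000136628, chromosome 1, 219968600 to 220046530). Its level was 86.0 and 89.9 RPKM in untreated, 45.3 and 43.7 in indisulam, 83.4 and 88.2 in SPHINX31 and 36.1 and 41.6 in combination libraries. All 4 libraries with indisulam were thus below all 4 without it, and the log2 fold change with indisulam was -0.98 (SE 0.0632, adjusted p = 7.70e-08, edgeR), a change of -49.4%.

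MARS1, the methionine enzyme (ENSG00000166986, chromosome 12, 57475445 to 57517569), had 74.8 and 77.1 RPKM in untreated, 41.8 and 41.4 in indisulam, 82.8 and 76.5 in SPHINX31 and 35.4 and 39.8 in combination libraries. The groups with and without indisulam did not overlap, and the log2 fold change with indisulam was -0.87 (SE 0.0597, adjusted p = 1.47e-07, edgeR). MARS1 shares 355 exon bases with DDIT3 on the opposite strand, and since the strand setting of the counting is not given in the sources used here, reads in that stretch may have been counted for either gene or for neither. DDIT3 itself was lower with indisulam (log2 fold change -0.71) and higher with SPHINX31 (0.99).

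IARS1 for isoleucine (ENSG00000196305, chromosome 9, 92210207 to 92293854) had 21.1 and 22.0 RPKM in untreated, 13.5 and 13.3 in indisulam, 22.5 and 23.3 in SPHINX31 and 11.7 and 13.6 in combination libraries. Its log2 fold change with indisulam was -0.69 (SE 0.0622, adjusted p = 1.64e-06, edgeR), and again no library with indisulam reached a library without it.

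AARS1 for alanine (ENSG00000090861, chromosome 16, 70251983 to 70289707) had 73.4 and 77.6 RPKM in untreated, 48.4 and 47.9 in indisulam, 91.8 and 85.6 in SPHINX31 and 49.1 and 58.8 in combination libraries. Here the combination libraries lay above the indisulam libraries, and the SPHINX31 libraries were the highest. The log2 fold change with indisulam was -0.65 (SE 0.0709, adjusted p = 8.56e-06, edgeR).

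GARS1, the glycine enzyme of both compartments (ENSG00000106105, chromosome 7, 30580533 to 30634033), had 33.0 and 34.2 RPKM in untreated, 21.2 and 21.9 in indisulam, 36 and 36.4 in SPHINX31 and 20.2 and 25.1 in combination libraries. The log2 fold change with indisulam was -0.64 (SE 0.0752, adjusted p = 1.62e-05, edgeR). KARS1, the other gene that serves both compartments, was not called, with 65.3 and 66.3 RPKM in untreated and 70.5 and 69.5 in indisulam libraries and a value of 0.09 on the log2 scale (SE 0.0467, edgeR adjusted p = 0.142).

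The other 8 cytosolic genes that fell were CARS1, QARS1, WARS1, SARS1, LARS1, VARS1, TARS3 and NARS1, with log2 fold changes from -0.60 to -0.21. They charge the tRNAs of cysteine, glutamine, tryptophan, serine, leucine, valine, threonine and asparagine. CARS1 went from 12.3 and 12.9 RPKM to 8.18 and 8.39, and QARS1 from 39.2 and 38.2 to 27.6 and 28.2.

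The 2 cytosolic genes that rose were RARS1 and FARSB. RARS1 for arginine (ENSG00000113643, chromosome 5, 168486451 to 168519301) had 32.2 and 31.7 RPKM in untreated, 38.5 and 36.8 in indisulam, 28.4 and 29.7 in SPHINX31 and 37.2 and 36.2 in combination libraries, so that every library with indisulam was above every library without it (log2 fold change 0.24, SE 0.0503, adjusted p = 0.00194, edgeR). FARSB, the beta subunit of the phenylalanine enzyme (ENSG00000116120, chromosome 2, 222566899 to 222656092), had 13.6 and 14.5 RPKM in untreated, 16.5 and 15.8 in indisulam, 13.1 and 13.7 in SPHINX31 and 14.7 and 15.5 in combination libraries (log2 fold change 0.21, SE 0.0549, adjusted p = 0.00787, edgeR). FARSA, the alpha subunit of that enzyme, had a log2 fold change of -0.00 (SE 0.0519) and was not called. HARS1, TARS1 and YARS1 were not called either, with log2 fold changes of -0.07, -0.06 and -0.14.

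Within the multisynthetase complex, 5 of 7 enzymes fell with indisulam (EPRS1, MARS1, IARS1, QARS1 and LARS1), RARS1 rose and KARS1 was not called, with a median log2 fold change of -0.47. Of the 13 cytosolic members outside the complex, 8 fell and 1 rose, with a median of -0.33. The scaffold proteins AIMP1, AIMP2 and EEF1E1 had log2 fold changes of 0.13, 0.13 and 0.02 and none was called. Of 9 cytosolic members of the structural class I, 7 fell and 1 rose, and of 10 of class II, 5 fell and 1 rose, EPRS1 being counted in neither because it joins an enzyme of each class. The background over all tested genes was 23.5% called lower and 20.1% higher. These subgroups overlap and no difference between them was tested.

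Split by the promoter letters shown above, 6 of the 7 cytosolic genes with the ATF4 letters fell and none rose, with a median log2 fold change of -0.64. The exception was TARS1, which had 90.3 and 93.9 RPKM in untreated and 88.4 and 88.2 in indisulam libraries (log2 fold change -0.06, SE 0.0681, adjusted p = 0.494, edgeR). Of the 9 cytosolic genes with a window but without these letters, 4 fell and 2 rose, with a median of -0.07, and EPRS1, which had the largest fall of all, was among them. YARS2, the mitochondrial gene with the letters, rose. Over all tested genes 23.5% were called lower and 20.1% higher. The share called among all genes with these letters was not computed, and the difference between these sets was not tested.

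Among the mitochondrial enzymes, TARS2 for threonine had the largest fall. TARS2 (ENSG00000143374, chromosome 1, 150487414 to 150507602) had 11.4 and 11.5 RPKM in untreated, 7.25 and 7.18 in indisulam, 9.78 and 9.97 in SPHINX31 and 6.38 and 6.16 in combination libraries. Each group was clear of the other 3, and the log2 fold change with indisulam was -0.66 (SE 0.0554, adjusted p = 8.01e-07, edgeR).

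EARS2 for glutamate (ENSG00000103356, chromosome 16, 23520754 to 23557731) went the opposite way, with 11.2 and 11.1 RPKM in untreated, 16.2 and 16.3 in indisulam, 10.1 and 10.5 in SPHINX31 and 15.4 and 15.7 in combination libraries. Its log2 fold change with indisulam was 0.54 (SE 0.0489, adjusted p = 1.62e-06, edgeR), a change of 45.6%, and all libraries with indisulam were above all others.

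WARS2 for tryptophan (ENSG00000116874, chromosome 1, 119031216 to 119140654) had 3.37 and 3.47 RPKM in untreated, 4.40 and 4.94 in indisulam, 3.72 and 3.66 in SPHINX31 and 4.78 and 5.63 in combination libraries. The log2 fold change with indisulam was 0.45 (SE 0.0886, adjusted p = 0.00115, edgeR), and the spread within the treated groups was wider than for EARS2. HARS2 for histidine and YARS2 for tyrosine also rose, by a log2 fold change of 0.29 each.

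CARS2 for cysteine (ENSG00000134905, chromosome 13, 110641412 to 110713603) had 3.41 and 3.23 RPKM in untreated, 2.43 and 2.64 in indisulam, 3.11 and 3.08 in SPHINX31 and 2.37 and 2.2 in combination libraries (log2 fold change with indisulam -0.39, SE 0.0656, adjusted p = 3.28e-04, edgeR). FARS2 for phenylalanine (ENSG00000145982, chromosome 6, 5261044 to 5829192) had 2.26 and 2.32 RPKM in untreated, 1.75 and 1.78 in indisulam, 2.56 and 2.50 in SPHINX31 and 1.85 and 1.84 in combination libraries (log2 fold change with indisulam -0.38, SE 0.0766, adjusted p = 0.00136, edgeR). In both genes the libraries with indisulam were below all those without it. IARS2 fell as well, with a log2 fold change of -0.31.

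The 8 mitochondrial genes that were not called had log2 fold changes from -0.10 (RARS2) to 0.71 (VARS2). For VARS2, at its low depth, the standard error was 0.305 and the value did not pass the threshold (adjusted p = 0.0754, edgeR).

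Set side by side for the same amino acid, the log2 fold change with indisulam was lower for the cytosolic than for the mitochondrial enzyme in 13 of 18 pairings, and the median difference, cytosolic minus mitochondrial, was -0.37. The widest gap was that of glutamate, with EPRS1 at -0.98 and EARS2 at 0.54, a difference of -1.52. For proline EPRS1 stood against PARS2 at 0.18, for tryptophan WARS1 at -0.42 against WARS2 at 0.45, and for methionine MARS1 at -0.87 against MARS2 at -0.01. The order was turned for threonine, where TARS1 and TARS3 stood at -0.06 and -0.33 and TARS2 at -0.66, for phenylalanine, where FARSA and FARSB stood at -0.00 and 0.21 and FARS2 at -0.38, and for arginine, where RARS1 stood at 0.24 and RARS2 at -0.10. Both enzymes fell for cysteine, for isoleucine and, with TARS3 as the cytosolic one, for threonine. EPRS1, FARS2 and TARS2 each enter 2 pairings, so the pairings are not independent, and their differences were not tested.

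**Figure D2:**
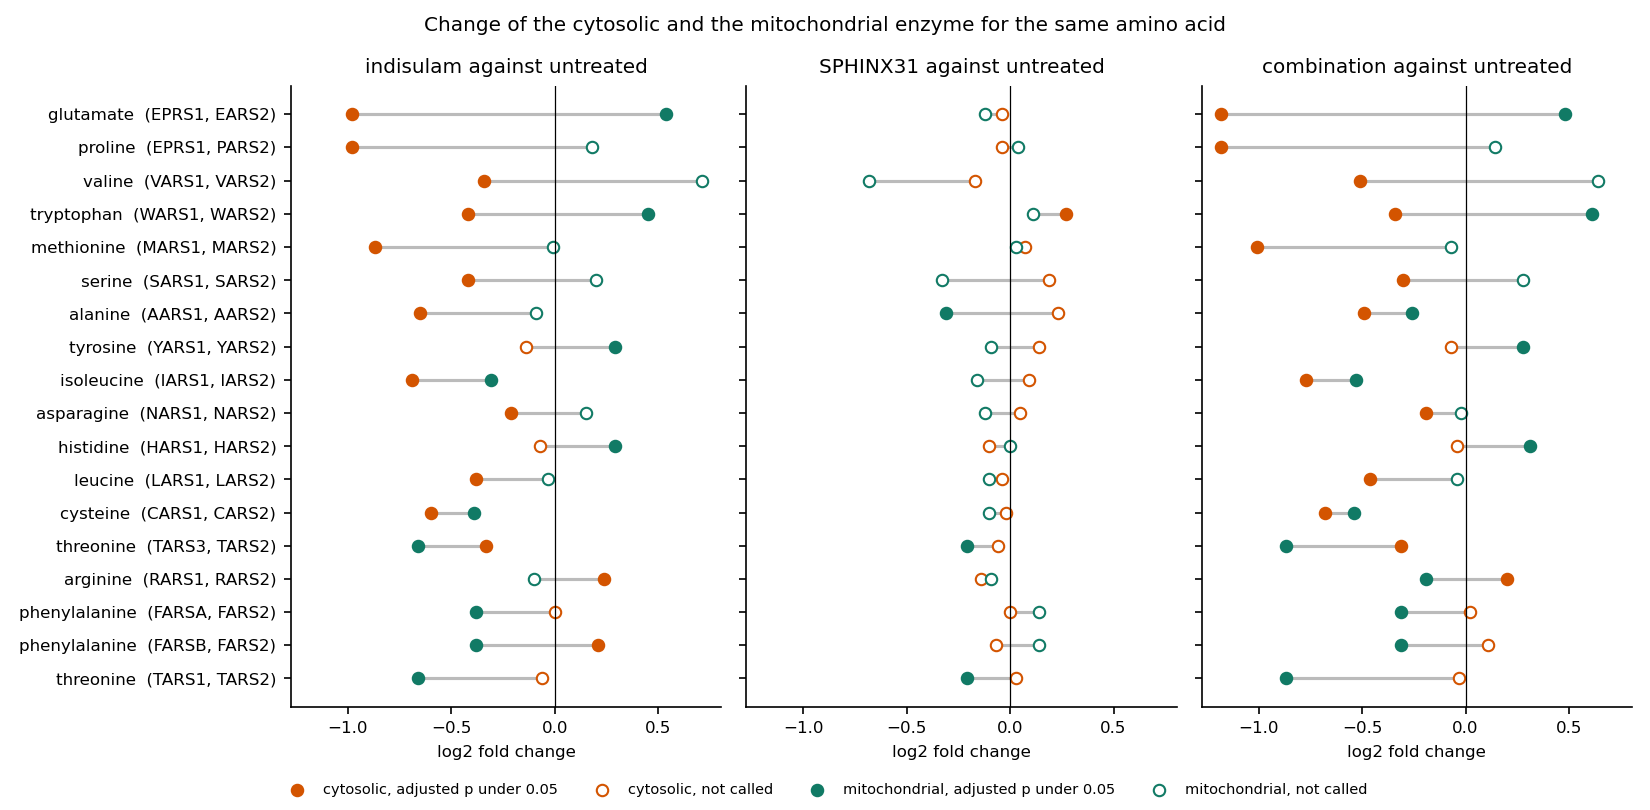
Log2 fold change of the cytosolic enzyme and of the mitochondrial enzyme for the same amino acid, joined by a line, in each treatment against untreated, with filled points for an adjusted p under 0.05 and open points for the rest. The cytosolic point is the lower one in 13 of 18 pairings with indisulam, in 5 of 18 with SPHINX31 and in 13 of 18 with the combination.

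Summed over the compartment, the cytosolic genes stood at 664 and 662 RPKM with indisulam (663 ± 1.12, SD, n = 2), a change of -21.4% from untreated, and the mitochondrial genes at 137 and 137 RPKM (137 ± 0.41), a change of -3.37%. The ratio of both sums was 4.84 ± 0.0226 against 5.95 ± 0.191 in untreated cells, and the libraries of the 2 groups did not overlap. A sum follows its few most abundant genes, and with 2 libraries against 2 no p-value is given for it. In a culture, fewer cells that express a gene and less RNA per cell cannot be told apart.

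**Figure D3:**
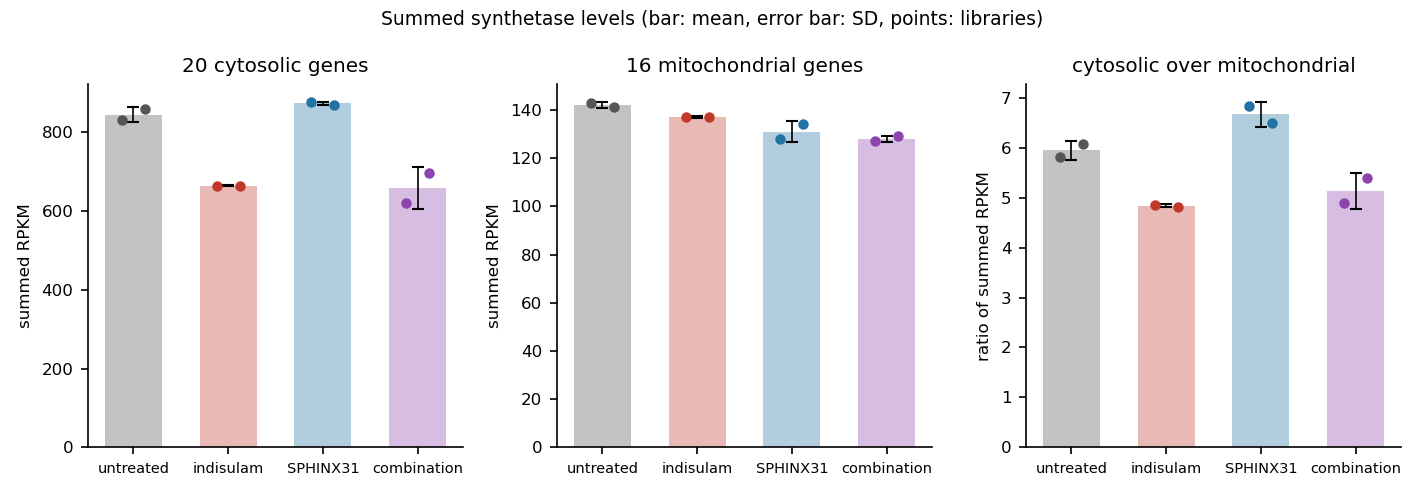
Summed RPKM of the 20 cytosolic and the 16 mitochondrial genes and their ratio in each group, with bars for the mean of 2 libraries, error bars for the SD and points for the libraries. The cytosolic sum is 844 in untreated, 663 in indisulam, 872 in SPHINX31 and 658 in combination cells, and the combination libraries are the furthest apart.

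Few synthetases were called with SPHINX31 alone. Of the 20 cytosolic genes WARS1 rose and 19 were not called, and of the 16 mitochondrial genes AARS2 and TARS2 fell and 14 were not called, with medians of -0.01 and -0.10 on the log2 scale. Over all tested genes 4.94% were called higher and 3.67% lower (921 and 685 genes), and scaling by library totals alone turned this split into 1341 and 515. The cytosolic sum was 875 and 869 RPKM (872 ± 4.32, SD, n = 2), a change of 3.27% from untreated, and the mitochondrial sum 128 and 134 RPKM (131 ± 4.21), a change of -7.83%. The ratio of cytosolic to mitochondrial sums was 6.84 and 6.49 (6.67 ± 0.248), above both untreated libraries.

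WARS1, the cytosolic tryptophan enzyme (ENSG00000140105, chromosome 14, 100333790 to 100376805), had 31.4 and 32.6 RPKM in untreated, 23.6 and 24.3 in indisulam, 40.6 and 36.9 in SPHINX31 and 23.0 and 27.4 in combination libraries. The SPHINX31 libraries were the highest, and the log2 fold change was 0.27 (SE 0.0725, adjusted p = 0.0333, edgeR). The call was lost without untreated replicate 1, untreated replicate 2 or SPHINX31 replicate 1 (adjusted p = 0.206, 0.112 and 0.222, edgeR), with log2 fold changes between 0.20 and 0.30. AARS1 and SARS1 had the next largest positive values, 0.23 and 0.19, and were not called (adjusted p = 0.0590 and 0.145, edgeR).

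AARS2, the mitochondrial alanine enzyme (ENSG00000124608, chromosome 6, 44298731 to 44313347), had 4.53 and 4.62 RPKM in untreated, 4.32 and 4.25 in indisulam, 3.77 and 3.60 in SPHINX31 and 3.99 and 3.67 in combination libraries. Both groups with SPHINX31 were below both groups without it, and the log2 fold change with SPHINX31 was -0.31 (SE 0.0665, adjusted p = 0.0111, edgeR). It was not called without untreated replicate 1, untreated replicate 2 or SPHINX31 replicate 2 (adjusted p = 0.0783, 0.0963 and 0.0517, edgeR). For TARS2, with the levels given above, the log2 fold change was -0.21 (SE 0.0543, adjusted p = 0.0288, edgeR), and leaving out any 1 of the untreated or SPHINX31 libraries ended the call, with adjusted p from 0.0517 to 0.180. The direction was kept each time.

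With the combination, the pattern seen with indisulam was present again. Of the 20 cytosolic genes 13 fell and 1, RARS1, rose, with a median log2 fold change of -0.33, and of the 16 mitochondrial genes 6 fell and 4 rose, with a median of -0.03. Over all tested genes 26.3% were called lower and 23.8% higher. The comparisons of indisulam and of the combination with untreated cells share the untreated libraries, so that their likeness is not independent evidence.

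The largest falls with the combination were those of EPRS1 (log2 fold change -1.18, SE 0.0635) and MARS1 (-1.01, SE 0.0599), with adjusted p = 1.00e-08 and 2.36e-08 (edgeR). IARS1 followed with -0.77 (SE 0.0623). CARS1 for cysteine (ENSG00000110619, chromosome 11, 3000922 to 3057613) had 7.25 and 8.51 RPKM in combination libraries against 12.3 and 12.9 in untreated, 8.18 and 8.39 in indisulam and 12.6 and 12.3 in SPHINX31 libraries, and its log2 fold change was -0.68 (SE 0.0667, edgeR adjusted p = 2.37e-06).

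QARS1 for glutamine (ENSG00000172053, chromosome 3, 49095932 to 49105130) had 39.2 and 38.2 RPKM in untreated, 27.6 and 28.2 in indisulam, 37.3 and 35.5 in SPHINX31 and 24.9 and 23.8 in combination libraries. The combination libraries were the lowest and clear of the indisulam libraries, and the log2 fold change against untreated was -0.67 (SE 0.0499, adjusted p = 1.72e-07, edgeR).

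On the mitochondrial side TARS2 fell most (log2 fold change -0.87, SE 0.0557, adjusted p = 4.55e-08, edgeR) and WARS2 rose most among the called genes (0.61, SE 0.0877, adjusted p = 7.44e-05, edgeR). CARS2 and EARS2 had log2 fold changes of -0.54 and 0.48. IARS2 (ENSG00000067704, chromosome 1, 220094132 to 220148041) had 63 and 62.8 RPKM in untreated, 50.7 and 50.7 in indisulam, 54.0 and 58.7 in SPHINX31 and 43.3 and 43.9 in combination libraries, and its log2 fold change was -0.53 (SE 0.0502, edgeR adjusted p = 1.65e-06). Its 4 groups did not overlap.

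The 2 combination libraries were not alike for the cytosolic genes. Their cytosolic sums were 620 and 695 RPKM (658 ± 53, SD, n = 2), 18 of the 20 cytosolic genes were higher in replicate 2, and the median log2 ratio of replicate 2 to replicate 1 was 0.18. For the mitochondrial genes, with sums of 127 and 129 RPKM (128 ± 1.31), it was -0.01. The ratio of both sums was 4.89 and 5.4 (5.14 ± 0.362), below both untreated libraries. NARS1, SARS1 and TARS3 were not called as lower without combination replicate 1 (adjusted p = 0.247, 0.0771 and 0.155, edgeR), and AARS2 was not called without combination replicate 2 (adjusted p = 0.0571, edgeR). NARS1 and TARS3 were not called without untreated replicate 2 either (0.142 and 0.169), and NARS1 not with scaling by library totals alone (0.0686). RARS2 (log2 fold change -0.19) lost its call without any 1 of the untreated or combination libraries, with adjusted p from 0.0524 to 0.171, and also with library totals alone (0.0970), every gene with at least 1 count kept (0.0582), the GC correction without and with the replicate block (0.0530 and 0.0699) and DESeq2 (0.0613). The calls of the other 19 of 24 members, 14 lower and 5 higher, were kept in every alternative.

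Few members were called when SPHINX31 was added to indisulam. In the combination against indisulam QARS1 was the only cytosolic gene called (log2 fold change -0.20, SE 0.05, adjusted p = 0.0292, edgeR), and IARS2 (-0.22, SE 0.0503, adjusted p = 0.0192) and TARS2 (-0.20, SE 0.0569, adjusted p = 0.0477) were the only mitochondrial ones. Over all tested genes 4.32% were called lower and 3.17% higher (807 and 592 genes), which became 498 lower and 942 higher with scaling by library totals alone. Each of the 3 calls was lost without any 1 of the indisulam or combination libraries, with adjusted p from 0.0723 to 0.188 for QARS1, from 0.0610 to 0.114 for IARS2 and from 0.112 to 0.212 for TARS2 (edgeR), while the log2 fold changes stayed between -0.23 and -0.17. Leaving out untreated replicate 1 or untreated replicate 2 also ended the calls of QARS1 (adjusted p = 0.0579 and 0.0580, edgeR) and TARS2 (0.0909 and 0.0910). Without combination replicate 1, AARS1 and SARS1 were the 2 cytosolic genes called, both higher (log2 fold change 0.29 and 0.27), and QARS1 was not.

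The effect of indisulam could be measured a second time in other libraries, since the combination and SPHINX31 libraries share none with the indisulam and untreated libraries. In the combination against SPHINX31, 13 cytosolic genes fell and 2 rose (median -0.37), and 4 mitochondrial genes fell and 6 rose (median 0.08), beside 26.5% of all tested genes called lower and 23.4% called higher. In 32 of 36 members the sign was the same as for indisulam against untreated, and all 22 members called in both comparisons had the same sign, 16 lower and 6 higher. Those 6 were RARS1, FARSB, EARS2, HARS2, WARS2 and YARS2. TARS3 was called only without SPHINX31, and YARS1, SARS2 and VARS2 only with it, which does not show that they differed. Of the 25 calls in the combination against SPHINX31, 21 were kept in every alternative, and those of FARSB, NARS1, YARS1 and VARS2 were not. FARSB and NARS1 thus lost their call under some alternative in both comparisons. Both comparisons came from the same fit of all libraries.

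**Figure D4:**
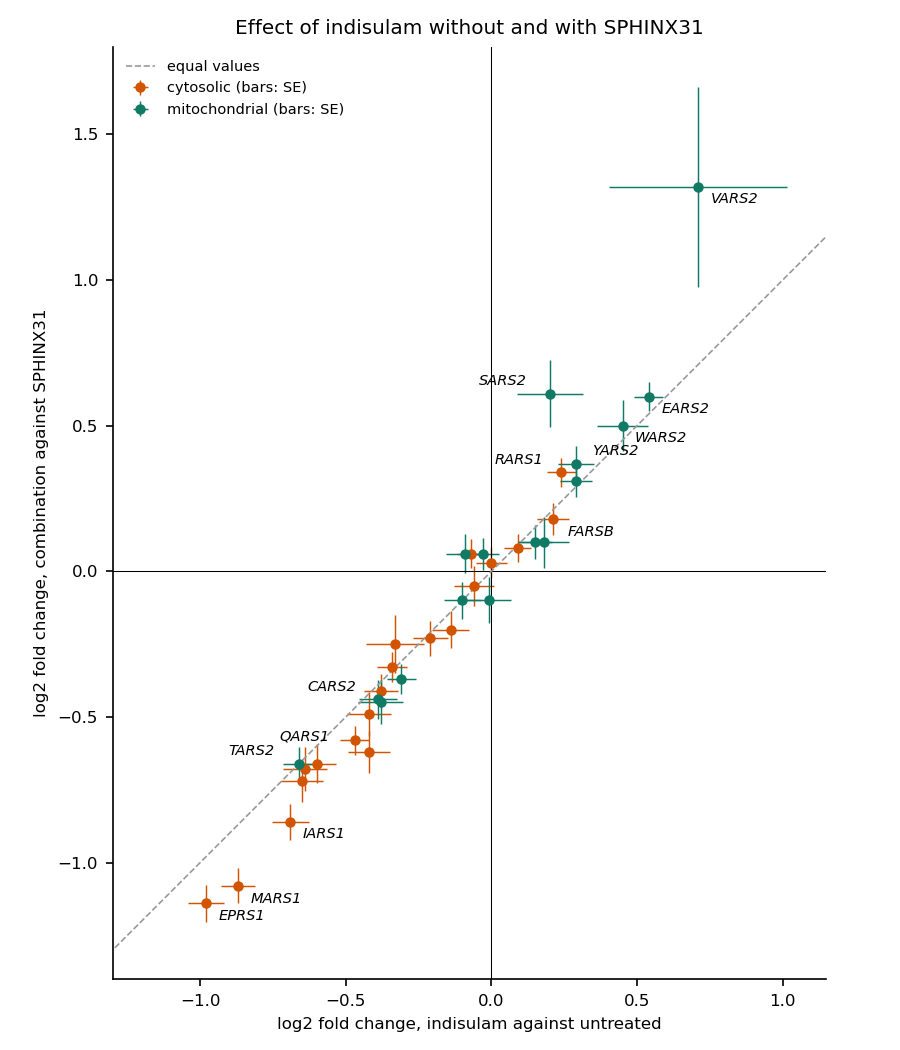
Log2 fold change of each synthetase gene with indisulam in the absence of SPHINX31 (horizontal axis) and in its presence (vertical axis), from libraries that do not overlap, with bars for the standard error and a dashed line for equal values. 32 of 36 genes have the same sign on both axes, and the widest error bars are those of VARS2.

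A departure from additivity on the log2 scale was tested directly as the interaction of both compounds. No member passed, and none of the 18661 tested genes did (0% called), although 1584 genes had an unadjusted p under 0.05 in edgeR and DESeq2 called 32 genes. The interaction values of the cytosolic members lay between -0.21 (MARS1, SE 0.0839, adjusted p = 0.525, edgeR) and 0.14, and those of the mitochondrial members between -0.09 and 0.61, the latter in the weakly counted VARS2. SARS2 had a value of 0.41 (SE 0.162, adjusted p = 0.530, edgeR).

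Genes that work with the synthetases were read from lists put together with earlier results of these data known. Of 25 genes in the list of ATF4 and its targets outside the synthetase family, 19 fell and none rose with indisulam, beside 23.5% and 20.1% of all tested genes, with a median log2 fold change of -0.49. The largest falls were those of SLC7A11, the cystine transporter subunit, with 60.8 and 65.9 RPKM in untreated and 13.4 and 12.1 in indisulam libraries (log2 fold change -2.32, SE 0.0704), of ALDH1L2, a mitochondrial folate enzyme, from 7.80 and 8.86 to 2.42 and 2.15 RPKM (-1.86, SE 0.0800), and of VLDLR, a lipoprotein receptor, from 5.84 and 5.63 to 2.29 and 2.32 RPKM (-1.32, SE 0.0573). ATF4 mRNA itself had 193 and 189 RPKM in untreated and 176 and 186 in indisulam libraries and was not called (log2 fold change -0.08, SE 0.0513, adjusted p = 0.218, edgeR). ATF4 is mainly regulated through its translation, which was not measured.

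With SPHINX31, 10 of the 25 genes of the ATF4 list were higher, none was lower and 15 were not called, beside 4.94% of all tested genes higher and 3.67% lower, and the median was 0.18. Those higher included DDIT3 (0.99) and ATF3 (0.84), both stress-induced transcription factors. In the combination 4 genes of the list were higher and 13 lower than in untreated cells (23.8% and 26.3% of all tested genes), with a median of -0.21, and against indisulam alone 9 were higher and none lower (3.17% and 4.32% of all tested genes). Of the 20 cytosolic synthetases, 1 was called higher with SPHINX31 alone, at a median of -0.01. As with the cytosolic synthetases, combination replicate 2 was above replicate 1 for 23 of the 25 genes, with a median log2 ratio of 0.15. SLC7A11, ALDH1L2 and VLDLR stood at 14.4 and 15.1, 2.17 and 2.42, and 2.28 and 2.50 RPKM in combination libraries, below all libraries without indisulam.

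Of 9 genes around the eIF2 kinases, 3 fell and 2 rose with indisulam, beside 23.5% and 20.1% of all tested genes. EIF2AK4, the GCN2 kinase that senses uncharged tRNA, had 4.33 and 4.34 RPKM in untreated and 2.44 and 2.43 in indisulam libraries (log2 fold change -0.83, SE 0.0574, adjusted p = 1.53e-07, edgeR). IMPACT, an inhibitor of GCN2 activation, went from 8.83 and 8.79 to 6.26 and 6.01 RPKM (-0.52, SE 0.0611). EIF2AK2, the kinase PKR that responds to double-stranded RNA, rose from 9.98 and 10.1 to 15.2 and 14.6 RPKM (0.57, SE 0.0646). The third gene that fell was PPP1R15A, a regulatory subunit of the phosphatase that acts on eIF2 (-0.32), which rose with SPHINX31 by a log2 fold change of 1.32 (9.39 and 9.69 RPKM in untreated against 26.2 and 21.4 in SPHINX31 libraries). PPP1R15A, DDIT3 and ATF3 are named here although they fall outside the rule for named genes, after their values had been seen.

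Of 19 genes that mature, export and proofread tRNA, 7 were higher and 5 lower with indisulam, beside 20.1% and 23.5% of all tested genes, with a median of 0.07. POP1, a protein of ribonuclease P, fell from 7.37 and 7.42 to 4.42 and 3.92 RPKM (log2 fold change -0.83, SE 0.0747). AARSD1, an alanyl-tRNA editing protein, rose by 0.90 (SE 0.223) on 27 to 91 counts per library.

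Among 15 partners of the mitochondrial enzymes in charging and translation, 4 rose and 4 fell with indisulam (median -0.05), which is near the 20.1% and 23.5% of all tested genes. MRRF, the mitochondrial ribosome recycling factor, rose from 5.48 and 5.73 to 8.71 and 8.73 RPKM (log2 fold change 0.64, SE 0.0511), and TRMU, which thiolates mitochondrial tRNAs, from 3.10 and 3.03 to 4.61 and 4.61 RPKM (0.59, SE 0.0630). MTFMT, which formylates the initiator methionyl-tRNA made by MARS2, fell from 9.06 and 8.92 to 6.17 and 7.35 RPKM (-0.41, SE 0.0787).

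Of the elongation factor 1 genes that carry charged tRNA to the cytosolic ribosome, EEF1A1 and EEF1B2 rose with indisulam (log2 fold change 0.22 and 0.23) and EEF1A2 fell from 49.2 and 45.5 to 33.4 and 38.3 RPKM (-0.40, SE 0.0633). EEF1D was not called and EEF1G, with 0 to 1 counts per library, was not tested. Why EEF1G received almost no counts was not examined, and this does not show that the gene is not expressed.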

How the data were processed

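RNA from 8 libraries of A549 cells was compared, 2 for each of 4 groups, taken from the treatment label of each library. The deposited files hold raw counts of reads per Ensembl gene, without normalization. The submitters' processing notes name HISAT2 2.2.1, HTSeq and GRCh38, and the strand setting and annotation release of the counting are not given in the sources used here. Unassigned reads, which name no gene, were left out of library sizes, so that 83% to 86% of the reads recorded entered (51727369 to 63186989 counts per library).

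Genes were filtered with filterByExpr and library sizes adjusted with TMM factors (0.978 to 1.02). All libraries were fitted together with 4 residual degrees of freedom with the quasi-likelihood test of edgeR 4.0.16 in R 4.3.3 (limma 3.58.1), with Benjamini-Hochberg adjustment over 18661 genes and a threshold of 0.05. The biological coefficient of variation was 0.0491. Replicates of a group were not copies, since a chi-square test of their counts gave 6.60 to 10.7 per degree of freedom. The procedure was tested on simulated data. Positions, exon lengths and overlaps came from GENCODE 44 (99.7% of the tested genes matched) and promoters from RefSeq GRCh38.p14.

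The members and lists were chosen with earlier results of these data known. Members given with every library are, per treatment and in the combination against indisulam, the 5 called members of each compartment with the largest absolute log2 fold change, and called members of opposite direction to their compartment with indisulam. From each other list the 3 called genes with the largest change with indisulam, and ATF4, are given. 1 gene that met this rule is not reported here. Alternatives were RLE size factors, library totals alone, DESeq2 1.42.0, looser and stricter filters (at least 1 count in all, at least 10 in every library), the compared groups alone, an adjusted p under 0.01, a replicate block, a GC correction over 50 bins of genes, both together and leaving out each library.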

Additional observations from a re-analysis of the deposited data

Results flagged for a closer look

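Several classes of reads that were not assigned to any gene were more frequent in libraries with indisulam than in both untreated libraries, and no comparison above uses them. Reads outside annotated features were at least 4.49% of the reads recorded in the indisulam libraries and at least 4.87% in the combination libraries, against at most 4.34% in untreated libraries. Reads overlapping more than 1 gene were at least 5.87% with indisulam against at most 5.22% in untreated cells, whereas the combination libraries had 4.99% and 4.96% and the SPHINX31 libraries 5.94% and 4.82%, the former above an indisulam library. Reads without a unique alignment were at least 5.53% with indisulam and 5.66% with the combination, against at most 5.48% in untreated libraries and 5.5% and 5.24% in the SPHINX31 libraries. These shares were not tested for a difference, and each rests on 2 libraries per group.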

How the results depend on the processing

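No member changed direction while called under any alternative. The 78 calls of members were repeated in 1403 settings, of which 1340 kept and 63 ended the call, and 79 settings called a member that had not been called. The adjusted p under 0.01 is not among these 1403 settings, and the lost calls of single members given above leave it out as well. Under it further calls ended, among them that of TARS3 with indisulam (adjusted p = 0.0164, edgeR). Counts of calls stayed within 1.5 times in 274 of 339 settings.

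With SPHINX31 alone 1606 genes, 1 cytosolic and 2 mitochondrial members were called. An adjusted p under 0.01 left 633, 0 and 0, library totals alone 2 cytosolic and 1 mitochondrial, every gene with at least 1 count 3 and 1, and at least 10 counts in every library 2 cytosolic members. The GC correction gave 2603 genes and 4 cytosolic members, with the replicate block 3, the compared groups alone 3 and DESeq2 3. Without single libraries the counts ran from 482 to 1810 genes, 0 to 3 cytosolic and 0 to 2 mitochondrial members. The combination against indisulam called 1399 genes, 1 cytosolic and 2 mitochondrial members. An adjusted p under 0.01 left 540, 0 and 0, library totals alone 0 and 1, every gene with at least 1 count 3 and 1, and the compared groups alone 0 and 1. The GC correction gave 2271 genes and 3 cytosolic members, with the replicate block 3, and DESeq2 3. Without single libraries the counts ran from 440 to 1612 genes, 0 to 2 cytosolic and 0 to 2 mitochondrial members, and without combination replicate 1 both cytosolic calls (AARS1 and SARS1) were higher while the 1 call with all libraries (QARS1) was lower. For the interaction, 0 genes became 94 with every gene with at least 1 count, 17 with the GC correction, 32 with DESeq2 and 0 to 1 without single libraries. The cause of these shifts was not tested. Without untreated replicate 1 the genes called fell to 5887 for indisulam (8148 with all libraries) and 482 for SPHINX31.

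The replicate numbers do not mark pairs by the labels, and the deviations of replicate 1 from the group mean correlated from -0.569 to 0.455 between groups over 9943 genes, so the block is an alternative only. With the replicate block 7851 genes, 15 cytosolic and 8 mitochondrial members were called with indisulam, and TARS2 lost its call in the combination against indisulam, which left 1 mitochondrial member. In a block in which the numbers of the indisulam libraries were swapped, a choice made after seeing the data, 2630 genes and 3 cytosolic members were called with SPHINX31, 2252 and 3 in the combination against indisulam, and 12 genes for the interaction.

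The depth limits VARS2, with 9 to 33 counts per library, and AARSD1. The ratio of cytosolic to mitochondrial sums and the order of genes by level depend on the gene length used. The ratio also depends on counting GARS1 and KARS1 as cytosolic only. With technical replicates the errors leave out variation between treatments.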
